A study of Homo sapiens with 18 samples.

Results

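Genes of the ETS fusions of prostate cancer were followed in androgen-treated LNCaP cells. They are 4 genes that serve as androgen-driven 5′ partners of ETS gene fusions (TMPRSS2, SLC45A3, NDRG1 and CANT1) and 6 ETS transcription factors (ETV1, ERG, ETV4, ETV5, ELF3 and EHF). They were taken by symbol from the raw count table, where they are 10 of 60649 genes. Of these 10, 8 passed the filter on low counts, among 15390 genes in all. The 8 were all 4 partners and 4 of the 6 ETS factors, while ERG and ETV4 did not pass.

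ETS factors bind DNA through a winged helix-turn-helix domain that recognises a GGAA core. In many prostate cancers a rearrangement places an ETS gene, most often ERG and less often ETV1, ETV4 or ETV5, behind the 5′ end of an androgen-induced gene, so that androgen drives the factor. LNCaP is an androgen-responsive line from a lymph node metastasis of prostate cancer. It is known for an insertion of the whole ETV1 locus into MIPOL1 on chromosome 14, not for a TMPRSS2-ERG fusion. ELF3 and EHF belong to the epithelium-specific branch of the family. The counts were summed per gene, so fusion transcripts and alleles were not separated.

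All cells were LNCaP, were transfected with a siRNA pool (SmartPool) and were kept without androgen from the following day. The pool was directed against UPF1, against RCOR1 or was a non-targeting control. After 48 h, 5 nM of R1881, a synthetic androgen, or its vehicle ethanol was added, and RNA was taken 48 h later. This gave 6 groups of 3 libraries: control siRNA, UPF1 siRNA and RCOR1 siRNA, each with vehicle or with R1881. UPF1 is the helicase at the heart of nonsense-mediated decay, and RCOR1 is the scaffold of the CoREST repressor complex. Each gene was targeted with 1 pool only, in 1 cell line. The labels call the libraries biological triplicates, and p-values measure the spread between these libraries.

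The 18 libraries held between 10299607 and 17338235 counts. Levels are given as CPM, the counts of a gene scaled to a common library total. UPF1 lay between 122.6 and 164.3 CPM with control siRNA and between 20.53 and 26.83 CPM with its siRNA. RCOR1 lay between 68.2 and 106.8 CPM with control siRNA and between 9.078 and 15.82 CPM with its own. Of the luminal prostate markers, KRT8, KRT18 and KLK3 had means of 457.5, 313.5 and 296.2 CPM in vehicle with control siRNA. Of 13 markers of other cell types, 4 passed the filter (COL1A1, CD68, VWF and KRT14). COL1A2, CD3E, CDH5 and TP63 had 0 counts in all libraries. In vehicle the 13 summed to 20.17 to 25.18 CPM with control siRNA, 35.71 to 38.49 CPM with UPF1 siRNA and 18.71 to 22.55 CPM with RCOR1 siRNA. In R1881 the sums were 10.45 to 13.19, 25.01 to 28.8 and 13.68 to 17.01 CPM in the same order. Their part in the results below was not tested. In these bulk libraries, fewer cells of a type and less RNA per cell cannot be told apart. Libraries of one group also differed in AT-rich transcripts. An AT-rich index was computed for each library as the median log2 deviation of 2443 genes below 40% GC from their mean over the 18 libraries. It was lowest, at -0.63 and -0.44, in the UPF1 siRNA R1881 libraries 1 and 2, and highest at 0.42 in a UPF1 siRNA vehicle library.

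The windows directly upstream of the transcription start are shown for the 4 members that have one in the RefSeq table (build GRCh38.p14) and whose level responded in at least 1 arm. Each is the 250 bases before the first listed start, 5′ to 3′ on the strand of the gene, with motif matches in capitals. SLC45A3 lies at chr1:205680510-205680759 (minus strand), ETV1 at chr7:13990703-13990952 (minus), ELF3 at chr1:202010337-202010586 (plus) and EHF at chr11:34624007-34624256 (plus).
SLC45A3: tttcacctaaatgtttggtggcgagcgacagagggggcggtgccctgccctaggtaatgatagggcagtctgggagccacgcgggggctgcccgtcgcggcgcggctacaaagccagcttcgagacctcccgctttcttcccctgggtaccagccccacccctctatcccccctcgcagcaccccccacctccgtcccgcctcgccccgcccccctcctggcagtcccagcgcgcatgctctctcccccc
ETV1: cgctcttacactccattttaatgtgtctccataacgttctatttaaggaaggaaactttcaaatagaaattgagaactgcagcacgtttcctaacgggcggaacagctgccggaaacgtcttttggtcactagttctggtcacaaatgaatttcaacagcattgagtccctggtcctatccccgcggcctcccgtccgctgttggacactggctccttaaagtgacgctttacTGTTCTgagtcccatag
ELF3: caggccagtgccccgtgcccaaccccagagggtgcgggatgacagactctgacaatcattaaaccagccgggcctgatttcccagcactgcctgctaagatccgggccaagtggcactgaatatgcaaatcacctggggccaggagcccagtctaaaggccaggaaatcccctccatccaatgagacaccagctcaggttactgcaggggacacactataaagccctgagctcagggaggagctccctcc
EHF: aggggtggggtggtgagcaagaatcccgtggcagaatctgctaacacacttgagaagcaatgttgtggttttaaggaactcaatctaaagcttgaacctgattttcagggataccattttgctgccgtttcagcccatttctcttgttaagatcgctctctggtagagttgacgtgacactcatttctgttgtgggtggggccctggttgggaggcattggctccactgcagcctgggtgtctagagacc
The letters of 4 motifs were searched on both strands of the windows, from 250 bases before to 50 bases after each start. They were the full androgen response element, an inverted repeat of AGAACA with 3 bases between its arms, its single arm AGAACA, and the ETS motifs CCGGAAG and GGAAGT. The full response element was found in 1 of 35116 windows in the table and in none of the 14 windows of the members. The single arm was found in 14.8% of all windows. Among the 5 members with windows, the fifth being ERG, it was found in ETV1 only, as TGTTCT at 1 place. This site begins 17 bases before the first start, and the same site lies 13 bases before another listed start. CCGGAAG was in 10.3% of all windows and in none of the 14 windows of the members. GGAAGT was in 22.8% of all windows and in 1 window of ETV1, 24 bases after its start. These matches describe letters in the windows and no binding was measured.

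The androgen response of the partners was large and was present under every siRNA. TMPRSS2 encodes a serine protease of the luminal cell surface, on chromosome 21 (41464551 to 41531116, minus strand, GENCODE 29 on GRCh38). With control siRNA it stood at 194.5, 237.1 and 210 CPM in vehicle and at 2443, 2270 and 2283 CPM in R1881. With UPF1 siRNA the values were 186.2, 181.4 and 187.1 CPM in vehicle and 1805, 1752 and 1632 CPM in R1881. Cells with RCOR1 siRNA gave 225, 244.4 and 227.5 CPM in vehicle and 1507, 1377 and 1432 CPM in R1881. All 9 R1881 libraries lay far above all 9 vehicle libraries, and the 3 R1881 groups did not overlap one another. The rise was 10.9-fold with control siRNA (log2 fold change 3.45 ± 0.078 SE, edgeR adjusted p = 1.8e-14), rank 120 of 15390 genes. It was 9.35-fold with UPF1 siRNA and 6.19-fold with RCOR1 siRNA.

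SLC45A3, also called prostein, is a sugar transporter-like membrane protein of the prostate on chromosome 1 (205657851 to 205680459, minus strand). Control siRNA cells held 74.67, 85.24 and 66.19 CPM in vehicle and 1149, 1038 and 1008 CPM in R1881. With UPF1 siRNA it stood at 74.95, 76.56 and 76.79 CPM, and in R1881 at 787.2, 799.3 and 699.1 CPM. With RCOR1 siRNA it stood at 86.35, 89.03 and 75.5 CPM, and in R1881 at 793.8, 719.7 and 731.4 CPM. The vehicle groups overlapped one another, and the R1881 groups of the 2 targeting siRNAs overlapped each other but not the control. SLC45A3 rose 14.1-fold with control siRNA (log2 3.82 ± 0.10 SE, adjusted p = 1.1e-13), 10.01-fold with UPF1 siRNA and 8.95-fold with RCOR1 siRNA.

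NDRG1, a stress- and differentiation-responsive cytoplasmic protein encoded on chromosome 8, had the steepest rise of the members with control and RCOR1 siRNA. With control siRNA it stood at 55.19, 69.01 and 64.63 CPM in vehicle and at 1379, 1294 and 1348 CPM in R1881. With UPF1 siRNA the values were 77.91, 66.29 and 66.18 CPM in vehicle and 574.2, 557.4 and 472.2 CPM in R1881. Cells with RCOR1 siRNA gave 60.06, 67.87 and 59.92 CPM in vehicle and 981.1, 860.7 and 941 CPM in R1881. The vehicle groups overlapped, while the 3 R1881 groups stood apart in the order control, RCOR1 and UPF1 siRNA. The rise was 21.3-fold (log2 4.41 ± 0.11 SE, adjusted p = 5.5e-14) with control siRNA, 7.62-fold with UPF1 siRNA and 14.8-fold with RCOR1 siRNA.

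CANT1 encodes a calcium-activated nucleotidase of the secretory pathway, on chromosome 17 (78991717 to 79009867, minus strand), and moved least among the partners. Under control siRNA CANT1 stood at 191.3, 234.7 and 200.5 CPM in vehicle and at 539.7, 463.7 and 450.3 CPM in R1881. With UPF1 siRNA it stood at 150.9, 148.5 and 129.8 CPM, and in R1881 at 313.1, 312.7 and 274.9 CPM. With RCOR1 siRNA it stood at 235.4, 242.2 and 209.6 CPM, and in R1881 at 431.2, 388.3 and 373.1 CPM. The UPF1 siRNA libraries lay below those of the other siRNAs within each treatment. The rise was 2.32-fold with control siRNA (log2 1.21 ± 0.10 SE, adjusted p = 9.5e-08), 2.10-fold with UPF1 siRNA and 1.74-fold with RCOR1 siRNA.

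**Figure D1:**
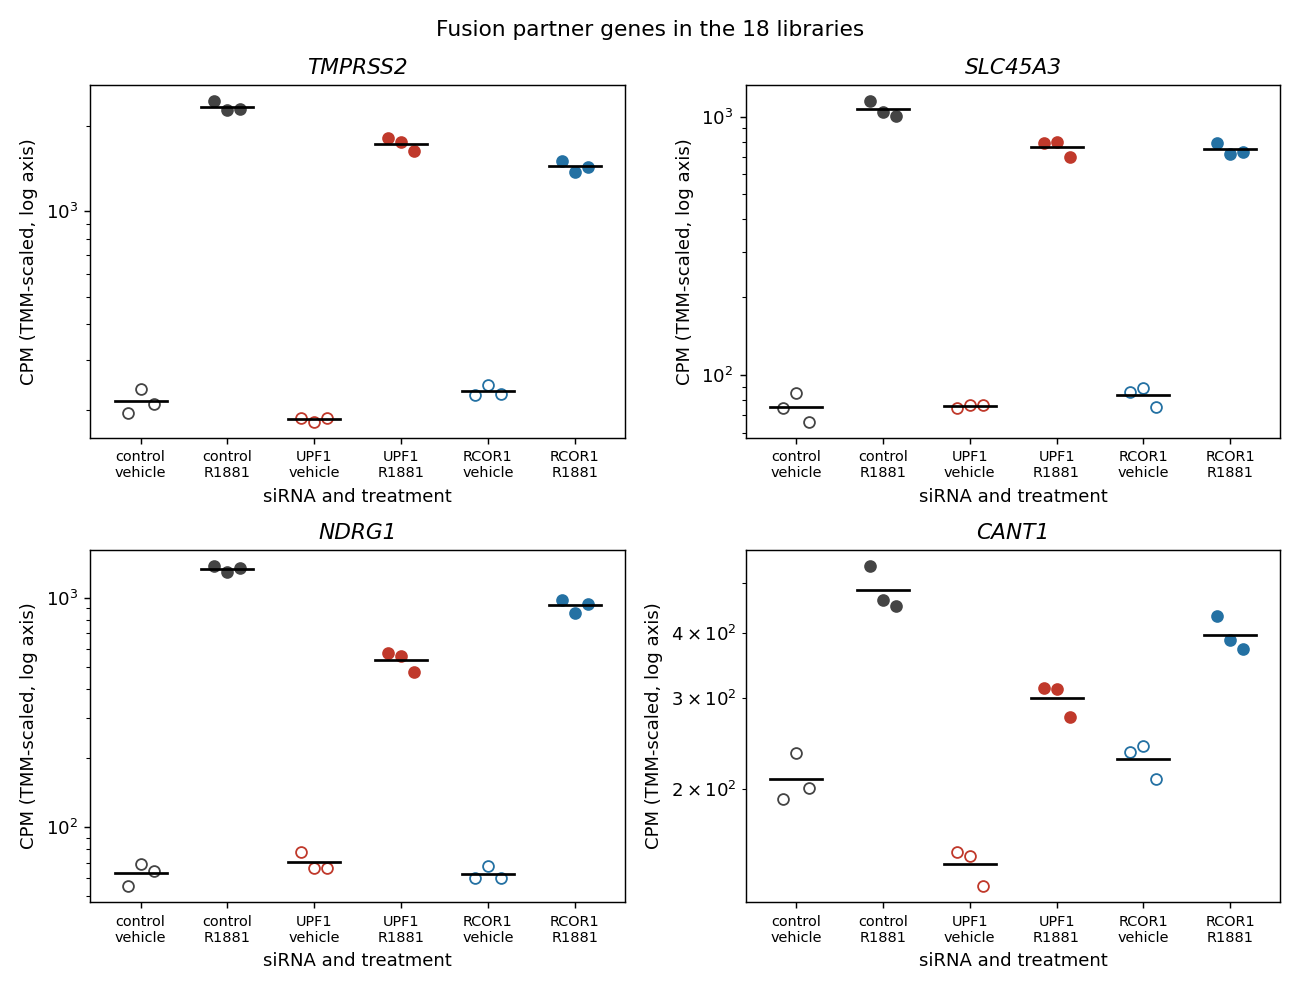
CPM (TMM-scaled, logarithmic y axis) of the 4 partner genes in each library, by siRNA and treatment; open points are vehicle, filled points R1881, and lines are group means of 3 libraries. All 9 R1881 libraries stand above all 9 vehicle libraries for each gene, and the NDRG1 level in R1881 falls from a mean of 1340 CPM with control siRNA to 534.6 CPM with UPF1 siRNA.

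Per kilobase of annotated exon, CANT1 was the highest partner in vehicle with control siRNA (47.2 CPM per kb), ahead of TMPRSS2 (35.0), SLC45A3 (20.4) and NDRG1 (6.41). In R1881 TMPRSS2 led at 381.2 CPM per kb, followed by SLC45A3 at 287.7, NDRG1 at 136.4 and CANT1 at 109.6. The order depends on the annotated lengths, such as 3702 bases for SLC45A3 and 9823 for NDRG1. Without length scaling, NDRG1 (1340 CPM) stood above SLC45A3 (1065 CPM) in R1881 with control siRNA. The 4 partners together took between 0.0463% and 0.0704% of all counts in the vehicle libraries and between 0.289% and 0.513% in R1881.

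The ETS factors behaved differently from one another. ETV1, a PEA3-type factor on chromosome 7 (13891228 to 13991425, minus strand), stood at 108.7, 76.64 and 100.5 CPM in vehicle and at 115.5, 173.3 and 186.8 CPM in R1881 with control siRNA. With UPF1 siRNA the values were 82.39, 97.42 and 118.9 CPM in vehicle and 120.4, 136.9 and 150.2 CPM in R1881. Cells with RCOR1 siRNA gave 58.5, 56.84 and 82.81 CPM in vehicle and 87.77, 110.2 and 135.1 CPM in R1881. Within each siRNA the vehicle and R1881 libraries did not overlap, but the spread within a group was wide, and no neighbouring pair in the order of the 6 group means stood apart. ETV1 rose with control siRNA (log2 0.73 ± 0.21 SE, adjusted p = 0.011) and with RCOR1 siRNA (0.75 ± 0.21, adjusted p = 0.013). With UPF1 siRNA the difference was 0.45 ± 0.21 (adjusted p = 0.10). It passed without a low-count filter (0.47, adjusted p = 0.0094) and with only the compared groups (0.43, adjusted p = 0.045). The difference between the responses, UPF1 minus control siRNA, was -0.29 ± 0.30 and did not pass (adjusted p = 0.63). The call with control siRNA was lost without vehicle library 2 (adjusted p = 0.058) or R1881 library 2 (0.050) or 3 (0.051). The call with RCOR1 siRNA was lost without vehicle library 1 (0.058) or 2 (0.062) or R1881 library 3 (0.074).

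EHF, an epithelial ETS factor on chromosome 11 (34621093 to 34661057, plus strand), was the most abundant of the 6. Under control siRNA EHF stood at 454.4, 290.9 and 398.4 CPM in vehicle and at 470.6, 784.5 and 786.5 CPM in R1881. With UPF1 siRNA it stood at 399.4, 468.8 and 518.4 CPM, and in R1881 at 375.3, 418 and 642.5 CPM. With RCOR1 siRNA it stood at 216.6, 209.9 and 303.1 CPM, and in R1881 at 372.7, 490.7 and 501.9 CPM. The treatments overlapped with UPF1 siRNA and did not overlap with the other siRNAs. EHF rose with control siRNA (log2 0.84 ± 0.24 SE, adjusted p = 0.011) and with RCOR1 siRNA (0.90 ± 0.24, adjusted p = 0.0082), and with UPF1 siRNA the difference was 0.05 ± 0.24 (adjusted p = 0.88). The difference between these responses, UPF1 minus control siRNA, was -0.79 ± 0.33 and did not pass the test (adjusted p = 0.21). Without vehicle library 2 the call with control siRNA was lost (log2 0.67, adjusted p = 0.055).

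ETV1 and EHF moved within groups along with the AT-rich index. For each of them, the 3 libraries of a group stood in the order of the index in 5 of 6 groups, which 8.19% of the tested genes matched or exceeded. TMPRSS2, NDRG1, CANT1 and ELF3 did so in 0 groups, SLC45A3 in 1 and ETV5 in 2. CANT1 stood in exactly the reverse order of the index in 5 of 6 groups, which 3.74% of the tested genes matched or exceeded. NDRG1 and ELF3 were in reverse order in 3 groups (22.1% of genes), TMPRSS2 in 2, and SLC45A3 and ETV5 in 1. The GC content of the exons was 38.1% in ETV1, which is itself one of the 2443 genes of the index, and 42.4% in EHF, which is not. In the other 8 members, ERG and ETV4 included, it lay between 46.4% and 60.8%. With the index as a covariate of the fit, chosen after seeing the data, the R1881 difference of ETV1 was 0.66 with control siRNA, 0.90 with UPF1 siRNA and 0.55 with RCOR1 siRNA, with edgeR adjusted p of 1.4e-07, 1.6e-08 and 7.1e-06. That of EHF was 0.75, 0.54 and 0.67, with adjusted p of 2.2e-11, 8.7e-08 and 5e-10. The UPF1 siRNA values of both passed in that fit and not in the chosen fit without the index. For CANT1 the R1881 difference with the index was 1.24, 0.88 and 0.88 in the same order, and the values for UPF1 siRNA were -0.48 in vehicle and -0.85 in R1881, all of which passed. The index is taken from the same counts, and its part in these results was not tested.

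**Figure D2:**
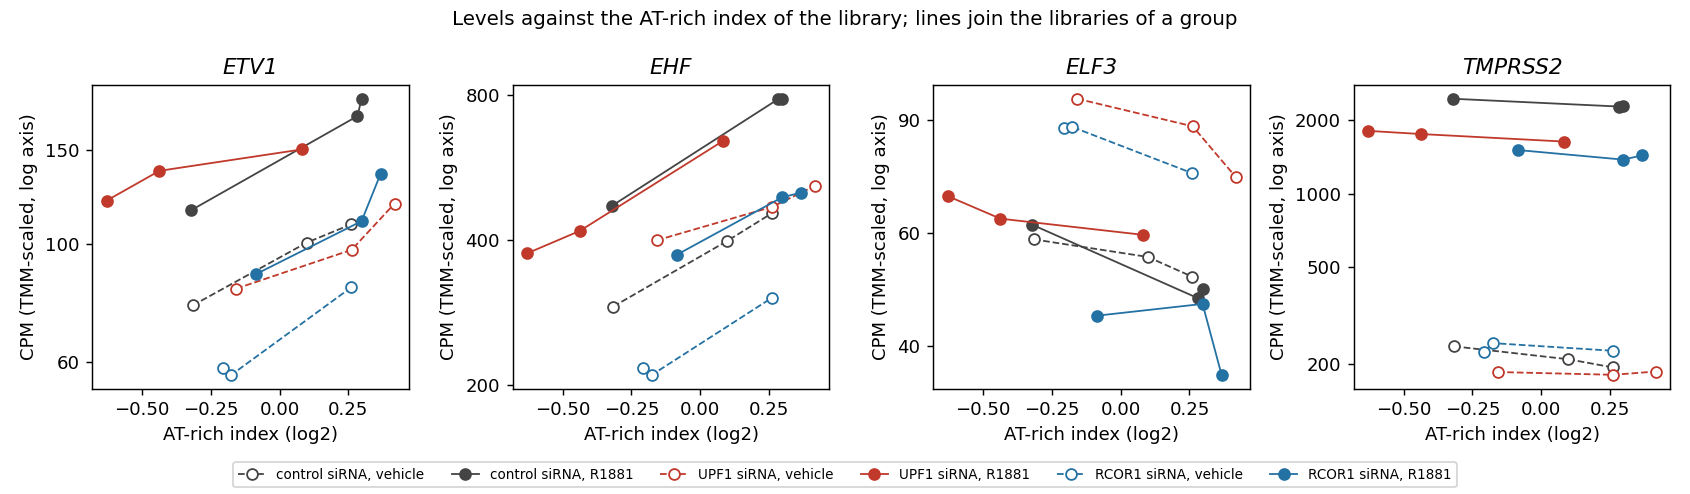
CPM (TMM-scaled, logarithmic y axis) of ETV1, EHF, ELF3 and TMPRSS2 against the AT-rich index of the library (log2), with lines joining the 3 libraries of a group, open points for vehicle and filled points for R1881. ETV1 and EHF climb with the index in 5 of 6 groups, while TMPRSS2 follows the index in none.

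ELF3, the other epithelial factor, lies on chromosome 1 (202007945 to 202017188, plus strand) and was called higher with R1881 in none of the arms. Under control siRNA ELF3 stood at 51.35, 58.68 and 55.1 CPM in vehicle and at 61.85, 47.5 and 49.06 CPM in R1881. With UPF1 siRNA the values were 97.06, 87.94 and 73.4 CPM in vehicle and 68.52, 63.19 and 59.63 CPM in R1881. Cells with RCOR1 siRNA gave 87.28, 87.7 and 74.37 CPM in vehicle and 44.66, 46.57 and 36.14 CPM in R1881. Both targeting siRNAs stood above all control libraries in vehicle, and their R1881 libraries stood below their own vehicle libraries. R1881 gave a difference of -0.06 ± 0.13 (adjusted p = 0.76) with control siRNA. ELF3 fell by 0.43 on the log2 scale with UPF1 siRNA (SE 0.13, adjusted p = 0.013) and by 0.97 with RCOR1 siRNA (SE 0.13, adjusted p = 2.6e-05). The UPF1 siRNA call was lost without vehicle library 1 (-0.34, adjusted p = 0.064). It was also lost without both R1881 libraries 1 and 2, where the value was -0.56 (adjusted p = 0.072) with 1 library left in that group, assumed to vary like the other groups. The antisense gene ELF3-AS1 overlaps ELF3 and held 9286 counts against 15829 for ELF3. The strand setting of the counting is not given in the sources used here, so reads of this pair cannot be told apart with certainty.

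**Figure D3:**
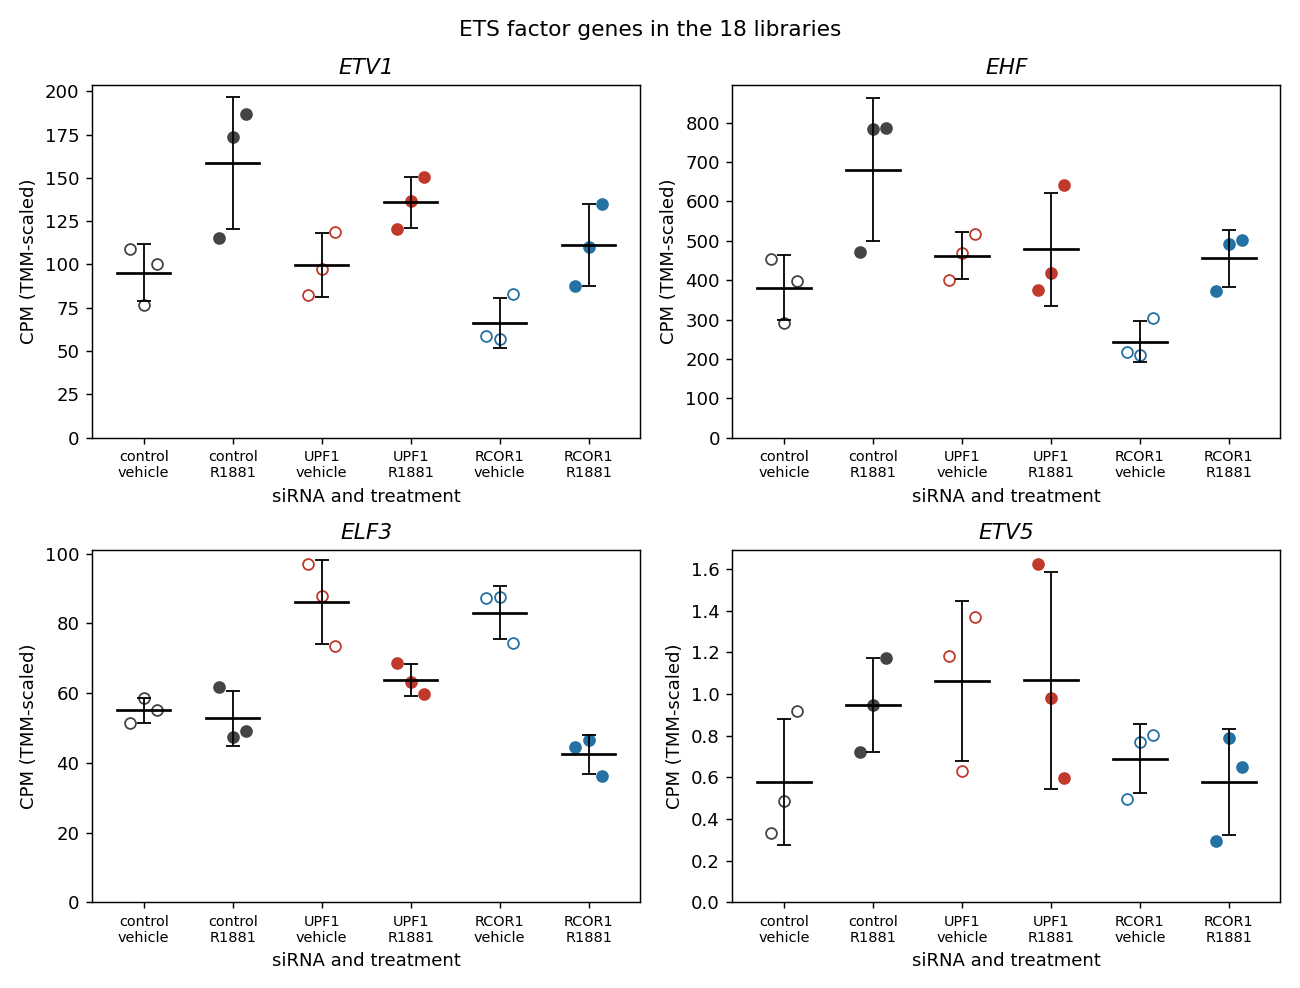
CPM (TMM-scaled, y axis from 0) of ETV1, EHF, ELF3 and ETV5 in each library by siRNA and treatment; lines are means and bars SD of 3 libraries. ELF3 is highest in the vehicle groups of both targeting siRNAs (means 86.13 and 83.12 CPM) and ETV5 reaches at most 1.626 CPM.

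The remaining factors were near the limit of detection. ETV5, a PEA3-type factor on chromosome 3 (186046308 to 186110318, minus strand), had 202 counts over all libraries and lay between 0.2933 and 1.626 CPM, with group means between 0.578 and 1.067 CPM and all neighbouring groups overlapping. It passed in 0 of the 12 comparisons by edgeR at an adjusted p below 0.05, and in 0 at an unadjusted p below 0.05, the lowest being 0.0521, for UPF1 against RCOR1 siRNA in R1881. DESeq2 called it in 0 of the comparisons for which it gave an adjusted p. ETV4, the third PEA3-type factor on chromosome 17 (43527844 to 43579620, minus strand), had 13 counts in all. Its groups held 2 and 1 counts with control siRNA, 0 and 4 with UPF1 siRNA and 1 and 5 with RCOR1 siRNA, vehicle before R1881. No direction is read from these few counts. ERG, on chromosome 21 (38380027 to 38661780, minus strand), had 3 counts in all, 2 in UPF1 siRNA vehicle and 1 in RCOR1 siRNA R1881. With control siRNA it had 0 counts, which allows up to 0.0742 CPM over the vehicle group and 0.0777 CPM over the R1881 group (3 counts per group, counting error only). TMPRSS2 on the same chromosome stood at a mean of 2332 CPM in the latter group. Per kilobase with control siRNA in R1881, EHF stood at 155.2 CPM, ETV1 at 16.5, ELF3 at 7.34 and ETV5 at 0.164.

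In counts, 6 of the 8 tested members were called higher and 0 lower with R1881 under control siRNA, where 37.7% of all genes were called, 20.1% higher and 17.6% lower. Their median log2 difference was 1.025, against 0.02 over all genes tested. Under UPF1 siRNA 4 were higher and ELF3 lower (41.6% of all genes called, 21.6% higher and 20% lower), with a median of 0.76 against -0.01. Under RCOR1 siRNA 6 were higher and ELF3 lower (31.2% of all genes called, 16.3% higher and 14.9% lower), with a median of 0.85 against 0.02. With library size alone in place of TMM scaling, the share of all calls that were higher moved from 53.3% to 26.5% with control siRNA, from 51.9% to 37.3% with UPF1 siRNA and from 52.3% to 29.3% with RCOR1 siRNA. All 4 partners were among the higher in each arm. The partners were taken as androgen-driven genes, and the other members as ETS factors. All were chosen with earlier results of these data known, so these counts describe them and are no independent support for a direction.

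**Figure D4:**
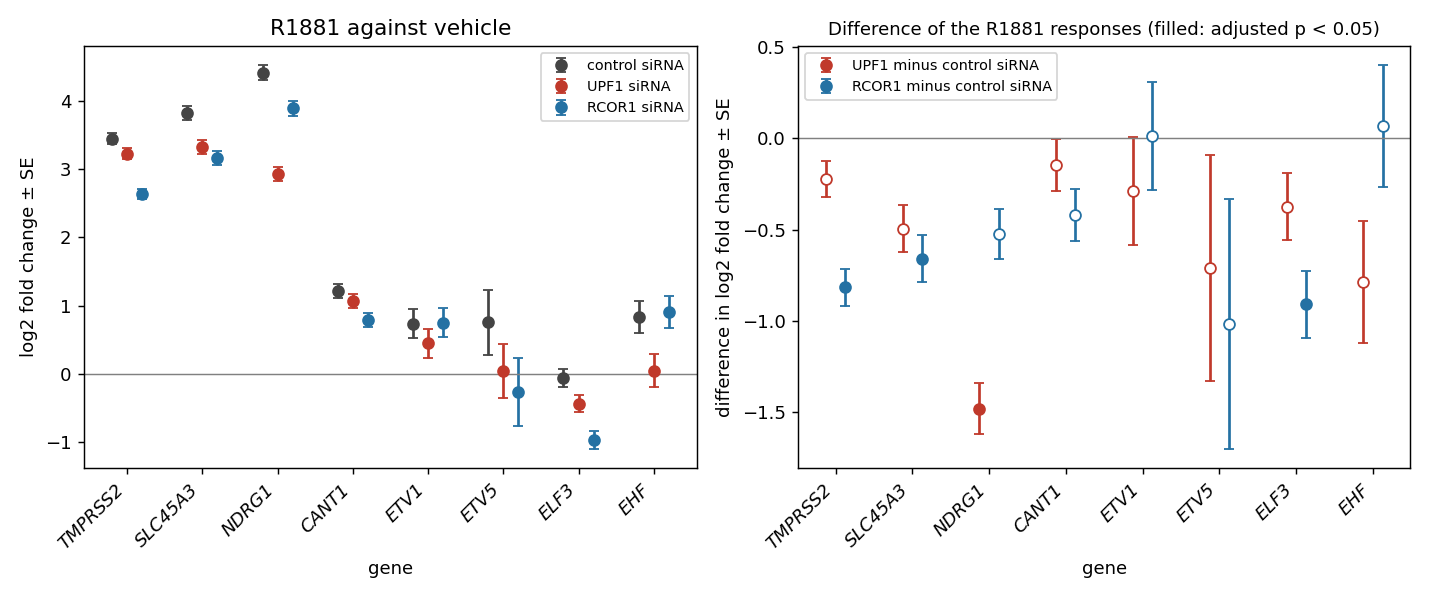
Left, log2 fold change ± SE of R1881 against vehicle for the 8 tested members with each siRNA; right, the difference of that response, targeting minus control siRNA, ± SE, filled where the adjusted p was below 0.05. NDRG1 has the largest difference with UPF1 siRNA (-1.48) and TMPRSS2, SLC45A3 and ELF3 are the filled points with RCOR1 siRNA.

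In R1881, UPF1 siRNA lowered all 4 partners, and none of the ETS factors passed with all libraries. NDRG1 fell by 1.33 (SE 0.098, adjusted p = 1.8e-07), CANT1 by 0.69 (SE 0.10, adjusted p = 9e-05), SLC45A3 by 0.48 (SE 0.091, adjusted p = 0.00081) and TMPRSS2 by 0.43 (SE 0.071, adjusted p = 0.00027) on the log2 scale. In each of them the 3 UPF1 siRNA libraries lay below all 3 control libraries. These 4 of 8 compare with 33.3% of all genes called, 17.6% higher and 15.7% lower, and the median member was at -0.457 against -0.003 over all genes. Of the calls over all genes 52.8% were higher, and 67.1% with scaling by library size alone. EHF was at -0.51 (adjusted p = 0.11) and ELF3 at 0.27 (adjusted p = 0.12). EHF passed without a low-count filter (-0.496, adjusted p = 0.0038), without control R1881 library 1 (-0.715, adjusted p = 0.02) and without UPF1 siRNA R1881 library 3 (-0.771, adjusted p = 0.02). ELF3 passed without control R1881 library 1 (0.41, adjusted p = 0.031). Leaving out 1 library gave 4 to 6 members called. The R1881 libraries 1 and 2 of UPF1 siRNA had the lowest AT-rich index. Without both, 1 library was left in that group and its spread was taken from the other groups, and the values of the 4 partners were -1.56, -0.87, -0.66 and -0.57.

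In vehicle, UPF1 siRNA gave another pattern. CANT1 fell by 0.55 (SE 0.10, adjusted p = 0.00052) and ELF3 rose by 0.65 (SE 0.13, adjusted p = 0.00099), and in both genes the groups did not overlap. TMPRSS2 was at -0.21 ± 0.071 (adjusted p = 0.031) without overlap of the libraries, but its call was lost without any one of 5 of the 6 libraries, with an adjusted p of 0.17 without control vehicle library 2. SLC45A3 and NDRG1 differed by 0.01 and 0.16 and did not pass. The 3 calls among 8, 1 higher and 2 lower, compare with 34.6% of all genes, 18.5% higher and 16% lower.

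RCOR1 siRNA lowered 3 partners in R1881 and none in vehicle. TMPRSS2 fell by 0.70 (SE 0.071, adjusted p = 1.2e-05), NDRG1 by 0.53 (SE 0.097, adjusted p = 0.0019) and SLC45A3 by 0.51 (SE 0.091, adjusted p = 0.0016), with no overlap of libraries in any of them. CANT1 was at -0.29 ± 0.10 (adjusted p = 0.076), again without overlap of the libraries. These 3 of 8 compare with 12.4% of all genes called, 5.06% higher and 7.33% lower. Of those calls 40.8% were higher, and 67.7% with library size alone. In vehicle the 1 call among 8, against 11.5% of all genes (5.31% higher and 6.21% lower), was ELF3, which rose by 0.595 (SE 0.13, adjusted p = 0.0067). ETV1 (-0.53 in vehicle and -0.51 in R1881) and EHF (-0.65 and -0.58) did not pass, with adjusted p between 0.094 and 0.13. With the AT-rich index as a covariate these 4 values were -0.48, -0.59, -0.59 and -0.67 and passed, the highest adjusted p being 7.2e-05. All 4 also passed without a low-count filter, with adjusted p of 0.016 and 0.031 for ETV1 and 0.00061 and 0.0047 for EHF. EHF in vehicle passed with DESeq2 (adjusted p = 0.044). In R1881 ETV1 and EHF passed without control R1881 library 1 (adjusted p of 0.047 and 0.04).

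The androgen response itself was lower on the signed log2 scale with RCOR1 siRNA in 3 members. TMPRSS2 and SLC45A3 rose less, while ELF3 fell with RCOR1 siRNA (-0.97) and was not called with control siRNA (-0.06). Of all genes 0.767% differed, 0.227% with a higher and 0.539% with a lower value. The count over all genes, 118, lay between 50 and 122 when 1 library was left out, the 50 being without control R1881 library 2, and was 885 with the AT-rich index as covariate. Of the calls 29.7% were higher, and 50.9% with library size alone. For TMPRSS2 the response was lower by 0.82 on the log2 scale (interaction -0.82 ± 0.10, adjusted p = 8e-04). The call was kept in all 12 fits that left out 1 library, with values between -0.89 and -0.74. For SLC45A3 it was -0.66 ± 0.13 (adjusted p = 0.024) and for ELF3 -0.91 ± 0.18 (adjusted p = 0.028). SLC45A3 kept its call in 3 of 12 such fits and ELF3 in 2 of 12, with adjusted p up to 0.12 and 0.11. NDRG1 (-0.52 ± 0.14, adjusted p = 0.11) and CANT1 (-0.42 ± 0.14, adjusted p = 0.26) did not pass. With the index as covariate they were at -0.48 (adjusted p = 0.0011) and -0.36 (adjusted p = 0.0017) and passed beside the other 3. ETV1 and EHF differed by 0.02 ± 0.30 and 0.07 ± 0.33. The 95% interval of the difference ran from -0.615 to 0.646 for ETV1 and from -0.641 to 0.778 for EHF.

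With UPF1 siRNA the response differed in 1 member, against 2.72% of all genes, 1.35% higher and 1.37% lower. The count over all genes, 419, lay between 185 and 1166 when 1 library was left out, the 1166 being without UPF1 siRNA R1881 library 3. Of the 419 calls 49.6% were higher, and 75.2% of those with library size alone. NDRG1 responded less by 1.48 (interaction -1.48 ± 0.14, adjusted p = 3.4e-05), and passed in 12 of 12 fits without 1 library. Without both R1881 libraries 1 and 2, with 1 library left in that group, it was at -1.66. SLC45A3 was at -0.50 ± 0.13 (adjusted p = 0.053), TMPRSS2 at -0.22 ± 0.10 (0.24) and CANT1 at -0.14 ± 0.14 (0.61). For CANT1 the 95% interval of the difference in response ran from -0.445 to 0.156. With the AT-rich index as covariate, SLC45A3 (-0.65, adjusted p = 3.6e-05), TMPRSS2 (-0.34, adjusted p = 0.0045), CANT1 (-0.36, adjusted p = 0.0019) and ELF3 (-0.62, adjusted p = 0.00055) passed beside NDRG1, where 2087 genes were called in all.

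Set directly against each other, the 2 targeting siRNAs separated TMPRSS2 from NDRG1. The R1881 response of TMPRSS2 was larger with UPF1 than with RCOR1 siRNA by 0.595 ± 0.10 (adjusted p = 0.0072). That of NDRG1 was smaller by 0.96 ± 0.14 (adjusted p = 0.0022). These were the 2 calls among 8, against 1.69% of all genes, 1.01% higher and 0.676% lower. The count over all genes, 260, lay between 85 and 1636 when 1 library was left out, the 85 being without UPF1 siRNA R1881 library 2 and the 1636 without library 3 of that group. Without both R1881 libraries 1 and 2 of UPF1 siRNA, the NDRG1 value was -1.15 and the TMPRSS2 value 0.50. With 1 library left in that group, that fit cannot decide whether the calls hold. In R1881, NDRG1 (-0.795 ± 0.097) and CANT1 (-0.405 ± 0.10) were lower with UPF1 than with RCOR1 siRNA, and TMPRSS2 (0.27 ± 0.071) and ELF3 (0.59 ± 0.13) were higher, 4 of 8 against 40.6% of all genes, 21.8% higher and 18.8% lower. With only that 1 library in the group the values were -1.03 for NDRG1, -0.585 for CANT1, 0.13 for TMPRSS2 and 0.44 for ELF3. Here too that fit cannot decide whether the 4 calls hold. In vehicle, EHF (0.93 ± 0.24) and ETV1 (0.59 ± 0.21) were higher with UPF1 siRNA and TMPRSS2 (-0.33 ± 0.071) and CANT1 (-0.68 ± 0.10) lower, 4 of 8 against 33.1% of all genes, 18.2% higher and 14.9% lower. The ETV1 call was lost without any one of 4 of the 6 libraries, with an adjusted p of 0.17 without UPF1 siRNA library 3. These comparisons share libraries with those against control siRNA.

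The order of the group means shows where members part. TMPRSS2 and CANT1 had the control R1881 group first and the UPF1 siRNA vehicle group last, both apart from their neighbour. TMPRSS2 had UPF1 before RCOR1 siRNA in R1881, and CANT1 and NDRG1 had RCOR1 before UPF1 siRNA. For EHF and ETV1 no neighbours in the order stood apart. For ELF3 the order ran from the 2 targeting siRNAs in vehicle (86.13 and 83.12 CPM), which overlapped, to RCOR1 siRNA in R1881 (42.46 CPM), which stood apart from the control R1881 group (52.8 CPM).

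By Pearson r of log2 CPM over the 18 libraries, which share treatment and depth, TMPRSS2 ran closest to HOMER2, SLC45A3 and KLK3 (r of 0.997, 0.997 and 0.996). SLC45A3 ran closest to HOMER2, TMPRSS2 and SORD (the last 0.995), NDRG1 to USP10 (0.993), CHKA (0.992) and TBC1D8 (0.99), and CANT1 to BHLHE40 (0.983), SLC41A1 (0.98) and PLPP1 (0.977). ETV1 ran closest to SYAP1 (0.978), RAB22A (0.963) and DDI2 (0.962), and EHF to RBPJ (0.984), EIF2S2 (0.961) and again RAB22A (0.96). ELF3 ran closest to ZDHHC14 (0.953), TLE1 (0.926) and HOXC13 (0.925). For ETV5 the highest r was 0.764, with AC113189.5, followed by FBXO36 (0.745) and PRRT3-AS1 (0.736).

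Among the 22 ETS genes that are no members, 17 passed the filter. With R1881 and control siRNA 5 were higher and 2 lower, where 20.1% and 17.6% of all genes were, and their median was 0.03 against 0.02 over all genes. SPDEF, the prostate-derived ETS factor, rose most, from a mean of 53.35 to 316 CPM (log2 2.57, adjusted p = 3.4e-10), and also rose with UPF1 (2.55) and RCOR1 siRNA (2.25). ELK4, a ternary complex factor whose gene neighbours SLC45A3 and is known to be read through from it, rose from 203.3 to 674 CPM (1.73, adjusted p = 0.00022) and by 1.58 with RCOR1 siRNA. With UPF1 siRNA its difference was 0.44 (adjusted p = 0.25). The difference between these responses of ELK4, UPF1 minus control siRNA, did not pass, and 0 of the 17 were called in that comparison. FEV (1.99), ELF2 (0.95) and ETS2 (0.64) were also higher, and ELF5 (-0.91) and ETV6 (-0.31) lower. UPF1 siRNA in R1881 lowered 7 of the 17 and raised ETS1 (1.55), where 15.7% of all genes were lower and 17.6% higher. The largest falls were GABPA at -1.71 and ELK4 at -1.67. Both genes stood in the order of the AT-rich index in 5 of 6 groups. Without both R1881 libraries 1 and 2, with 1 library left in that group, they were at -1.002 (adjusted p = 0.24) and -1.245 (adjusted p = 0.06). SPDEF was lower with UPF1 siRNA in vehicle (-0.64) and in R1881 (-0.655) and with RCOR1 siRNA in R1881 (-0.74), and it followed the index in 0 groups. With RCOR1 siRNA in vehicle SPDEF was at -0.42 (adjusted p = 0.046), a call that was lost in 3 of 6 fits without 1 library. It was also lost with DESeq2 (adjusted p = 0.068) and, in edgeR, with DESeq2 size factors (0.078), library size alone (0.13) and only the compared groups (0.17).

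**Figure D5:**
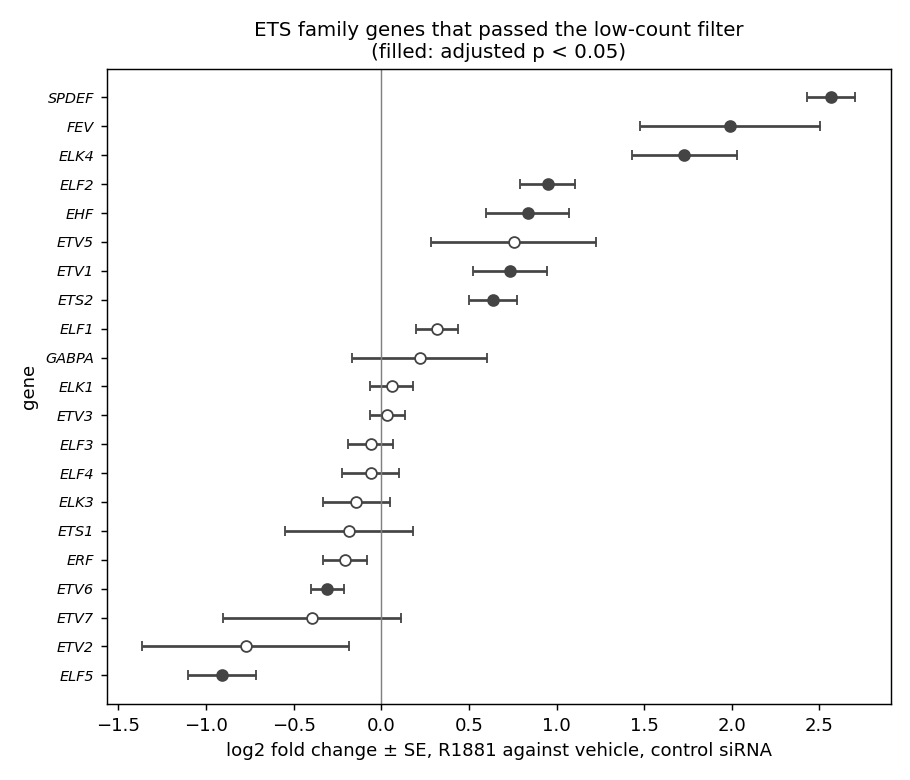
Log2 fold change ± SE of R1881 against vehicle with control siRNA for the 21 ETS genes that passed the low-count filter, members included, filled where the adjusted p was below 0.05. SPDEF stands highest at 2.57, the members EHF and ETV1 are filled at 0.84 and 0.73, and ELF3 lies near 0.

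Of 9 further genes described as 5′ partners of ETS fusions, all passed the filter, 4 were higher and 1 lower with R1881 and control siRNA (20.1% and 17.6% of all genes), with a median of 0.28. They were KLK2 (4.89), which encodes a prostate kallikrein, ACSL3 (3.25), a fatty acid ligase, HERPUD1 (1.41), an endoplasmic reticulum stress protein, and STAT3 (0.54), with UBTF at -0.26. FOXP1, HNRNPA2B1, DDX5 and HMGN2P46 did not pass. The response of the 9 with UPF1 minus control siRNA was called higher in 1 and lower in 1, against 1.35% and 1.37% of all genes. With RCOR1 minus control siRNA it was called higher in 0 and lower in 2, against 0.227% and 0.539%. The KLK2 response was larger with UPF1 siRNA (0.69, adjusted p = 0.015) and smaller with RCOR1 siRNA (-1.08, adjusted p = 0.00099). Whether these KLK2 calls hold when a library is left out was not tested.

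The genes beside the members did not share one direction. Of 6 tested neighbours of SLC45A3, 3 were higher with R1881 and control siRNA and 1 was lower, against the same 20.1% and 17.6% of all genes, which also apply to the lists that follow. SLC41A1, a magnesium transporter, rose by 3.46 (adjusted p = 1.8e-13), ELK4 as above and RAB29 by 0.67, while MFSD4A fell by 2.08. Of 14 tested genes within or flanking the chromosome 21 span between ERG and TMPRSS2, RIPK4 (1.14), IGSF5 (0.84) and ETS2 (0.64) were higher and MX1 (-1.22) was lower, with a median of 0.10. Of 7 tested genes near ETV1 at its own locus or around the known insertion, FOXA1 (0.24) and PAX9 (0.49) were higher. DGKB, which lies next to ETV1 on chromosome 7, was at 0.76 and did not pass (adjusted p = 0.25), and MIPOL1 was at 0.06 (adjusted p = 0.91).

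Genes listed as relatives of the partners, the nucleotidase genes ENTPD4 and ENTPD6 included, also differed among themselves. With R1881 and control siRNA, 7 of 13 tested were higher and 3 lower, with a median of 0.44. SLC45A2 (2.43) and NDRG4 (1.88) were the steepest, with at most 3.343 and 2.811 CPM in any library. NDRG3 was at -0.04 (adjusted p = 0.68), NDRG2 at -0.31, TMPRSS13 at -0.98 and TMPRSS6 at -2.05. Outputs of the RAS-ERK pathway, which is known to induce ETV1, ETV4 and ETV5, were higher in 7 of 13 and lower in 2. DUSP5 (3.24), EGR1 (2.09), FOS (1.72) and DUSP4 (1.25) led the higher, and MYC (-0.65) and CCND1 (-0.37) were lower. In the same contrast ETV5 was at 0.755 ± 0.472 SE and did not pass (edgeR adjusted p = 0.24). With an SE of that size, its low counts cannot decide between a rise and no change. ETV4, with 13 counts in all, did not pass the filter and had no test. Whether the pathway acted on these genes was not tested. Of 11 tested repressors, ligase parts and cofactors of ETS proteins, 1 was higher and 2 were lower. EWSR1 was at 0.24, PARP1 at -0.24 and TRIB1, an adaptor of the COP1 ubiquitin ligase, at -1.001 (adjusted p = 3.1e-07).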

How the data were processed

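Total RNA of LNCaP cells, depleted of ribosomal RNA, was sequenced in 18 libraries. The deposited values were raw counts, whole reads per gene with no normalization by the authors. Per the submitters' processing notes, bcl2fastq 2.20, STAR 2.7.9a, featureCounts of Subread 1.6.4 and GRCh38.p7 were used. For the annotation release and the strand setting, the sources used here give nothing. Identifiers were matched without version to GENCODE 29 (58381 of 60649) for positions, exon length and GC.

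The tests used edgeR 4.0.16 (limma 3.58.1) under R 4.3.3, by filterByExpr, TMM scaling, 1 mean per group over all 18 libraries, quasi-likelihood F tests of 12 contrasts, and Benjamini-Hochberg adjustment over the 15390 genes tested. A gene was called at an adjusted p below 0.05. The procedure was tested on simulated counts for R1881 against vehicle with control siRNA only. These had 1 spread common to all genes and no AT-rich differences between libraries, so they do not cover the response differences. CPM were scaled by TMM and are given per library or as means over 3 libraries. Each SE is the log2 fold change divided by the root of its F value. Alternatives were DESeq2 1.42.0, other scalings and filters, fits of the compared groups alone, leaving out libraries, and the AT-rich index as covariate, which was chosen after seeing the data. Libraries held 10299607 to 17338235 counts, and limits set by 3 counts cover counting error only. Replicate numbers were given in accession order and pair nothing.

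The members and lists were chosen with earlier results of these data known. All members are named. From each list up to 4 called genes per direction with the largest change are named, any neighbour may be named, and for each member the 3 genes with the highest r are named. NDRG3 and the further partners that did not pass were named after their values were seen. One marker gene is not reported here.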

Additional observations from a re-analysis of the deposited data

Results flagged for a closer look

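In 6 cases the response of a member to R1881 differed between siRNA arms by the interaction test of edgeR. NDRG1 responded less with UPF1 siRNA than with control siRNA (-1.48 on the log2 scale) and less than with RCOR1 siRNA (-0.96). TMPRSS2 responded less with RCOR1 siRNA than with control siRNA (-0.82) and more with UPF1 siRNA than with RCOR1 siRNA (0.595). SLC45A3 responded less with RCOR1 siRNA than with control siRNA (-0.66), and ELF3 differed in the same contrast by -0.91, since it fell with RCOR1 siRNA. The SLC45A3 call was kept in 3 and the ELF3 call in 2 of 12 fits that left out 1 library. Both were lost with DESeq2 size factors, with library size alone and with only the compared groups. Without UPF1 siRNA R1881 libraries 1 and 2, the TMPRSS2 difference between the targeting siRNAs was 0.50. That fit leaves 1 library in the group and cannot decide whether the call holds. The causes were not tested.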

How the results depend on the processing

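Over the 12 contrasts, 43 member results were called. Of their 344 values under alternatives other than leaving out 1 library, 327 stayed on the same side of the threshold, 17 lost the call and 0 changed sign. The 53 results that were not called had 419 such values, of which 29 gained a call and 26 changed sign. No paired analysis was possible because the replicate numbers were given in accession order. The cause was not tested in any case. Libraries of 10299607 counts or more left ERG and ETV4 at or near the limit of 3 counts.

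Counts of members called moved as follows. With the AT-rich index as covariate there were 5 for UPF1 siRNA in vehicle (3 in the chosen fit), 3 for RCOR1 siRNA in vehicle (1), 7 for RCOR1 siRNA in R1881 (3), 5 for the UPF1 response difference (1) and 5 for the RCOR1 response difference (3), in both TMPRSS2, SLC45A3, NDRG1, CANT1 and ELF3. With no filter there were 3 for RCOR1 siRNA in vehicle, 5 for RCOR1 siRNA in R1881 and 2 for the UPF1 response difference, and DESeq2 gave 2 for RCOR1 siRNA in vehicle. The RCOR1 response difference had 1 with DESeq2 size factors, with library size alone, with only its groups and without UPF1 siRNA R1881 libraries 1 and 2. The last leaves 1 library in that group, assumed to vary like the other groups, and is no sign of stability. Without those libraries there were also 2 for UPF1 against RCOR1 siRNA in R1881 (4) and 1 for the difference of those responses (2). Leaving out 1 library gave 3 to 5 for RCOR1 siRNA in R1881, the 5 without control R1881 library 1, and 1 to 2 for the UPF1 response difference, the 2 without control vehicle library 2. It gave 1 to 3 for the RCOR1 response difference, with 1 in 9 of 12 fits.

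Signs changed only in values that were not called. With library size alone, ETV5 (-0.041) and EHF (-0.048) changed for R1881 with UPF1 siRNA, SLC45A3 (-0.019) for UPF1 siRNA in vehicle, NDRG1 (0.028) for RCOR1 siRNA in vehicle, CANT1 (0.003) for the UPF1 response difference and ELF3 (-0.015) for UPF1 against RCOR1 siRNA in vehicle. SLC45A3 for UPF1 siRNA in vehicle was also at -0.012 with DESeq2 and with its size factors, -0.021 with no filter and -0.049 without the 2 libraries. NDRG1 for RCOR1 siRNA in vehicle was at 0.001 with no filter and 0.009 with only its groups. Without the 2 libraries, ETV1 was at -0.003 for UPF1 siRNA in vehicle and SLC45A3 at -0.151 for UPF1 against RCOR1 siRNA in R1881. ETV5 was then at -0.868 for R1881 with UPF1 siRNA, -0.70 for UPF1 siRNA in R1881 and -0.587 for the UPF1 minus RCOR1 response. With the index, ETV1 was at -0.072 and 0.165 for UPF1 siRNA in vehicle and R1881, and at 0.237, -0.11 and 0.347 for the UPF1, RCOR1 and UPF1 minus RCOR1 response differences. EHF was at -0.079 for the RCOR1 response difference. SLC45A3 was at -0.117 for UPF1 against RCOR1 siRNA in R1881 and at -0.041 for the difference of those responses, where CANT1 was at -0.005.

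Leaving out 1 library gave these ranges across zero. For R1881 with UPF1 siRNA, ETV5 ran from -0.417 to 0.299 and EHF from -0.218 to 0.198, and with RCOR1 siRNA ETV5 ran from -0.542 to 0.073. For UPF1 siRNA in vehicle, SLC45A3 ran from -0.076 to 0.107 and ETV1 from -0.087 to 0.181, and in R1881 ETV5 ran from -0.22 to 0.496. For RCOR1 siRNA in vehicle NDRG1 ran from -0.098 to 0.063. For the UPF1 response difference CANT1 ran from -0.228 to 0.014, and for that of RCOR1 ETV1 ran from -0.144 to 0.218 and EHF from -0.109 to 0.266. For UPF1 against RCOR1 siRNA, ELF3 ran from -0.044 to 0.153 in vehicle, and in R1881 SLC45A3 ran from -0.009 to 0.087 and EHF from -0.195 to 0.221. For the difference of those responses ETV5 ran from -0.153 to 0.588.

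Counts over all genes moved in both directions in the response differences. Against 419 for UPF1 there were 2087 with the index, 1320 with no filter, 639 with DESeq2, 177 with only its groups and 60 without the 2 libraries. Against 118 for RCOR1 there were 885 with the index, 57 with library size alone, 27 with only its groups and 54 without the 2 libraries. Against 260 for UPF1 minus RCOR1 there were 1708 with no filter, 845 with DESeq2, 702 with the index and 23 without the 2 libraries. Without the 2 libraries R1881 with UPF1 siRNA gave 2924 (6405), UPF1 siRNA in R1881 1904 (5128) and UPF1 against RCOR1 siRNA in R1881 2342 (6244). RCOR1 siRNA gave 744 in vehicle (1772) and 745 in R1881 (1907) with only its groups, and 4442 and 4295 with the index, which gave 7682 (5101) for UPF1 against RCOR1 siRNA in vehicle. For R1881 with control siRNA, the median over all genes was 0.022 with TMM and -0.221 when only library size was used.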
